A study of Homo sapiens with 6 samples.

Results

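The genes described here encode proteins of the lysosomal limiting membrane: the glycoproteins LAMP1, LAMP2, CD63 and SCARB2, the exporters CTNS and SLC17A5, the cation channel MCOLN1, the chloride-proton exchanger CLCN7 with its partner subunit OSTM1, and CLN3. They were chosen by symbol from their known function, with earlier results of these data known, and all 10 were found among the 31762 genes of the count table, each in 1 row. H460, a human lung cancer cell line described as carcinoma with WT genotype, was grown in RPMI-1640 with fetal bovine serum and either exposed to 20 µM fluoxetine, an antidepressant that inhibits serotonin reuptake, for 24 h or kept as control. Total RNA was sequenced in 3 libraries per group. The agent given to the control cells is not named, and nothing says whether the libraries of a group came from separate cultures, so p-values measure the spread between these libraries, which may be technical. Everything below refers to 1 cell line at 1 dose and 1 time.

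A lysosome digests material at acidic pH, and its membrane has to resist its own enzymes, let the digestion products out and hold the ion gradients. Heavily glycosylated proteins such as LAMP1 and LAMP2 line the inner face, carriers such as CTNS and SLC17A5 return small molecules to the cytosol, and channels and exchangers set calcium, chloride and proton levels. Many lysosomal genes carry the CLEAR element, an E-box bound by TFEB and TFE3, in their promoters. In the deposited annotation all 10 genes carried the term lysosomal membrane, and 8 of them, without CLCN7 and OSTM1, were placed in the lysosome pathway.

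RefSeq promoter sequence, from 250 bases before to 50 bases after the transcription start, was at hand for 9 of the 10 genes and not for LAMP2. It was searched on both strands for the full CLEAR consensus, which is a 10-base palindrome, for its 7-base core TCACGTG and for the 6-base E-box CACGTG that lies inside both. Of 35116 RefSeq promoters of this length, 0.35% held the full consensus, 3.71% the 7-base core and 7.26% the E-box. Counted by gene symbol, with a gene scored if any of its promoters matched, the shares were 0.42%, 4.49% and 8.77%. The windows below run from 200 bases before to 30 bases after the start, 5′ to 3′ on the strand of the gene, in GRCh38.p14, with the matches in capitals. LAMP1 (chr13:113297039-113297268, plus strand), CLCN7 (chr16:1474999-1475228, minus strand), MCOLN1 (chr19:7522424-7522653, plus strand) and CLN3 (chr16:28492045-28492274, minus strand) are the 4 genes with the 7-base core, and SLC17A5 (chr6:73653963-73654192, minus strand), which rose most, is shown as one without any of the motifs.
LAMP1: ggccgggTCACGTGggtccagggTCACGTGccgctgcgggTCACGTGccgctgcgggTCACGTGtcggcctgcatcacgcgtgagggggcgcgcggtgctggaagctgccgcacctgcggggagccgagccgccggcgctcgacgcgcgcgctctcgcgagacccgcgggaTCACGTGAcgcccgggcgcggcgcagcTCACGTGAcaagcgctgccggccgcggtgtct
CLCN7: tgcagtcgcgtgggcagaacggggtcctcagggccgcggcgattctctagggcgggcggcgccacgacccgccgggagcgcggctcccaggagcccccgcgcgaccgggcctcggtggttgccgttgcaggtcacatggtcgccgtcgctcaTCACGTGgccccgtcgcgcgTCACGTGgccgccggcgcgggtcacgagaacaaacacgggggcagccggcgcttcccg
MCOLN1: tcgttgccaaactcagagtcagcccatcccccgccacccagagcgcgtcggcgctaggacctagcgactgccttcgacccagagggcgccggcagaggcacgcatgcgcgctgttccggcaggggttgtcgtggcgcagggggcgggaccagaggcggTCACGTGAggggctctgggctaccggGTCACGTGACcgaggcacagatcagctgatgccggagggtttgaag
CLN3: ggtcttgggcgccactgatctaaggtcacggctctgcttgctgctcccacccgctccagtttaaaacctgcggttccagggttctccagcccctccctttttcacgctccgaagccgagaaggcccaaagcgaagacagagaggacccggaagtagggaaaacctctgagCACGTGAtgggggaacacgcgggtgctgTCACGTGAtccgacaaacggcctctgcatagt
SLC17A5: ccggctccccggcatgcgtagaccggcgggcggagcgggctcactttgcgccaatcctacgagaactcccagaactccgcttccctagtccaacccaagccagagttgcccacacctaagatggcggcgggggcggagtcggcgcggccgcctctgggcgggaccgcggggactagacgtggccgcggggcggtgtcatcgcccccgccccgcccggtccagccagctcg

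LAMP1 held 6 copies of the 7-base core, 4 of them in an array whose E-boxes began at -192, -176, -159 and -142 from the start, and the others at -28 and -1. CLCN7 held 2 copies, at -47 and -27. MCOLN1 also held 2, at -41 and -14, and the one at -14 was part of the full consensus, the only such match among the 9 genes. CLN3 held 2, at -30 and -1 of the window shown, which its other annotated start shares. One of the 8 annotated CD63 windows held the E-box alone, at -180, and the windows of SCARB2, CTNS, SLC17A5 and OSTM1 held none of the motifs. Only exact matches were counted, so sites that differ from a motif by a base were not searched for. A match describes these letters in this window and no binding was measured.

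The libraries held 19343565 to 27823667 counts on genes in the control group and 16157507 to 17113538 with fluoxetine, and the deepest fluoxetine library was shallower than the shallowest control library. When each library was thinned to 16157507 counts, 9 of the 10 genes were called, as without thinning. Levels are given in CPM, a gene's counts scaled by the size of its library after TMM scaling, and tests are edgeR quasi-likelihood tests adjusted over 15646 genes. The epithelial keratins KRT8, KRT18 and KRT19 were expressed, while EPCAM lay below the filter on low counts and CDH1 had no more than 3 counts in any library. The keratin KRT7 was low, at a mean of 0.805 CPM in control and 0.874 CPM in fluoxetine libraries. The summed level of 6 epithelial markers was 3060 to 4030 CPM in control and 2690 to 3260 CPM in fluoxetine libraries. Nearly all of it came from KRT8, KRT18 and KRT19. Of 12 markers of fibroblasts, pericytes, endothelium and leukocytes, 9 were in the table, 4 of them (COL1A2, PECAM1, VWF and PTPRC) at no more than 3 counts in every library, and their sum was 28.1 to 31.0 and 23.0 to 23.7 CPM. KRT18 (log2 -0.72, edgeR adjusted p = 0.00162) and COL3A1 (log2 -0.53, adjusted p = 0.0145) fell, and none of these markers rose. The part of these shifts in the results below was not tested. CPM are shares of a library, so more RNA per cell from these genes and less from the other genes cannot be told apart.

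All 10 genes passed the filter on low counts and had a higher mean in fluoxetine-treated cells, and 9 of them rose at an adjusted p under 0.05, against 13.1% of all tested genes in either direction and 7.76% in the upward direction. None fell. The 9 genes, all but CLN3, were also those in which every fluoxetine library lay above every control library, a pattern found in 17.5% of tested genes. SLC17A5, CLCN7 and CTNS rose at least 2-fold, against 1.25% of tested genes called with such a rise. The median log2 fold change of the 10 genes was 0.71, and that of all tested genes was 0.03.

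**Figure D1:**
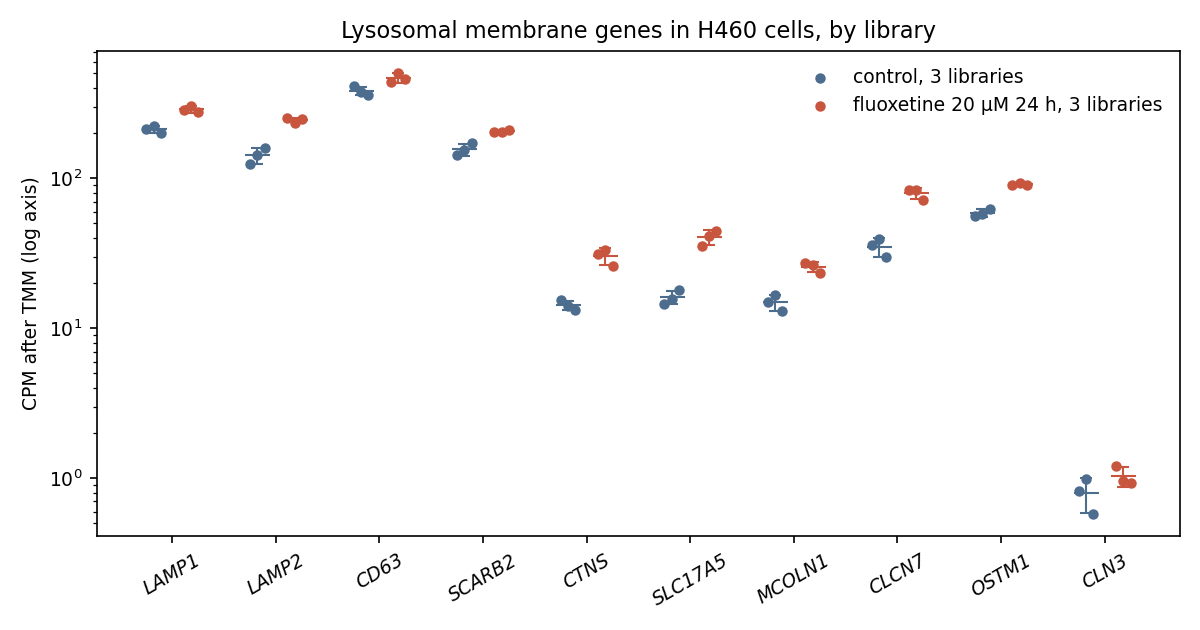
CPM after TMM on a log axis for each of the 10 genes, with 1 point per library, blue for control and red for fluoxetine (3 libraries each), and bars for mean and SD. The red points lie above the blue ones for every gene except CLN3, where the ranges of the groups, 0.576 to 0.9899 and 0.932 to 1.21 CPM, overlap.

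The abundant glycoproteins rose by modest factors. LAMP1, with LAMP2 the main protein of the lysosomal coat (ENSG00000185896, chromosome 13, 113297241 to 113323672, plus strand, GRCh38), was measured at 212.5, 225 and 200.1 CPM in control replicates 1, 2 and 3 and at 286, 304 and 275 CPM in the fluoxetine replicates. The lowest fluoxetine library was above the highest control library, and the fold change was 1.36 (log2 0.44, SE 0.07, edgeR adjusted p = 0.00432). This call was lost without fluoxetine replicate 1 (adjusted p = 0.0518, log2 0.42). LAMP2, the other coat protein, one isoform of which is the receptor of chaperone-mediated autophagy (ENSG00000005893, X chromosome, 120427827 to 120469365, minus strand), was at 125, 143 and 159 CPM in control and at 251, 234 and 249.7 CPM in fluoxetine libraries. It rose 1.72-fold (log2 0.78, SE 0.09, adjusted p = 0.000542), and the groups were separated by 74.9 CPM. The counts are per gene, so the isoforms of LAMP2 are not resolved.

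LAMP2 had a larger fold change than LAMP1, but the ratio of LAMP2 to LAMP1 in CPM per kilobase of exon did not separate the groups. It was 0.613, 0.660 and 0.827 in control and 0.913, 0.800 and 0.944 in fluoxetine libraries, with control replicate 3 above fluoxetine replicate 2. In control replicate 3, the deepest library, LAMP1 was at its lowest and LAMP2 at its highest level of the group. Of the 10 genes, 6 had their lowest and the other 4 their highest control level in that library.

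CD63 and SCARB2 are the remaining glycoproteins. CD63, a tetraspanin of late endosomes, lysosomes and exosomes (ENSG00000135404, chromosome 12, 55725323 to 55729707, minus strand), was at 409.9, 378 and 360.5 CPM in control and at 438, 505 and 458 CPM in fluoxetine libraries, a 1.22-fold rise (log2 0.29, SE 0.08, adjusted p = 0.0392). Its groups did not overlap, but the gap between control replicate 1 and fluoxetine replicate 1 was only 28.5 CPM. The call was lost when any 1 of the 6 libraries was left out (adjusted p from 0.0517 to 0.186), with RLE scaling (0.0697) and with DESeq2 (0.0562). Of its exon bases 9.0% are shared with the antisense gene AC009779.2, which had 97 to 159 counts per library against 7221 to 10007 for CD63. SCARB2, the receptor that carries glucocerebrosidase to the lysosome (ENSG00000138760, chromosome 4, 76158733 to 76234536, minus strand), was at 142, 155 and 171 CPM in control and at 204, 203 and 211 CPM in fluoxetine libraries. It rose 1.32-fold (log2 0.40, SE 0.08, adjusted p = 0.00986) with no overlap between the groups. The SCARB2 call was lost without control replicate 2 (adjusted p = 0.0715), without fluoxetine replicate 1 (0.0749) and without fluoxetine replicate 3 (0.0593).

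The exporters were expressed at lower levels, and both rose more than 2-fold. CTNS, the cystine exporter cystinosin that is mutated in cystinosis (ENSG00000040531, chromosome 17, 3636468 to 3661542, plus strand), was at 15.3, 14.2 and 13.2 CPM in control and at 31.5, 33.5 and 25.9 CPM in fluoxetine libraries. Each fluoxetine library lay above every control library, with a fold change of 2.13 (log2 1.09, SE 0.12, adjusted p = 0.00042). Without fluoxetine replicate 2 the log2 fold change was 0.98, just under the 2-fold line, with an adjusted p of 0.00245. SLC17A5, the sialic acid exporter sialin that is mutated in Salla disease (ENSG00000119899, chromosome 6, 73593379 to 73654155, minus strand), was at 14.6, 15.8 and 17.9 CPM in control and at 35.4, 41.3 and 44.5 CPM in fluoxetine libraries. It had the largest rise of the 10 genes, 2.51-fold (log2 1.33, SE 0.12, adjusted p = 9.05e-05), and 0.69% of all tested genes had a larger log2 fold change. The ratio of SLC17A5 to CTNS per kilobase was 0.898 to 1.27 in control and 1.06 to 1.62 in fluoxetine libraries, so the balance of the exporters did not separate the groups.

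MCOLN1 encodes TRPML1, the lysosomal cation channel that releases calcium and is mutated in mucolipidosis type IV (ENSG00000090674, chromosome 19, 7522626 to 7534009, plus strand). Its level was 14.9, 16.8 and 13.04 CPM in control and 27.2, 26.4 and 23.5 CPM in fluoxetine libraries. The groups did not overlap and the rise was 1.73-fold (log2 0.79, SE 0.12, adjusted p = 0.00249). Its end overlaps AC008878.2 and PNPLA6 on the same strand, which together share 4.4% of its exon bases and 9.3% of its coding bases. AC008878.2 shares 4.3% of the exon bases and has no row in the count table. PNPLA6, which averaged 649.8 counts per library, shares 0.2% of them.

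CLCN7 and OSTM1 form the lysosomal chloride-proton exchanger, in which OSTM1 is the accessory subunit, and loss of either causes osteopetrosis. CLCN7 (ENSG00000103249, chromosome 16, 1444934 to 1475580, minus strand) was at 35.7, 39.5 and 29.7 CPM in control and at 83.9, 83.1 and 71.6 CPM in fluoxetine libraries, and rose 2.28-fold (log2 1.19, SE 0.11, adjusted p = 0.000145). OSTM1 (ENSG00000081087, chromosome 6, 108041409 to 108165854, minus strand) was at 55.9, 57.8 and 62.9 CPM in control and at 90.1, 92.5 and 90.8 CPM in fluoxetine libraries, and rose 1.55-fold (log2 0.63, SE 0.08, adjusted p = 0.000753). Neither pair of groups overlapped. In these libraries the fold change of CLCN7 was larger than that of OSTM1. The ratio of CLCN7 to OSTM1 per kilobase of exon was 0.419, 0.448 and 0.310 in control and 0.610, 0.589 and 0.517 in fluoxetine libraries, 1.46 times as high on average, with every fluoxetine library above every control library. With 3 libraries against 3, an exact two-sided permutation test gives p = 0.1, the smallest it can reach, for any ratio that separates the groups. It therefore cannot decide whether this ratio differs, and the other ratios given here were not tested. Antisense genes share 16.1% of the exon bases of CLCN7, and whether the counting used strand is not stated. AL031600.1 among them had 2 to 12 counts per library, and AL031600.3, with 13.8% of the CLCN7 exon bases, has no row in the table.

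CLN3, the lysosomal membrane protein mutated in juvenile Batten disease (ENSG00000188603, chromosome 16, 28474111 to 28495575, minus strand), stood apart from the other 9 genes. It had 18, 19 and 16 counts in control and 20, 16 and 16 counts in fluoxetine libraries, which is 0.816, 0.9899 and 0.576 CPM against 1.21, 0.952 and 0.932 CPM. The groups overlapped, and the log2 fold change of 0.40 had a 95% interval from -0.31 to 1.12 (adjusted p = 0.468), which holds both no change and a 2-fold rise. In none of the 14 alternative settings was CLN3 called. The annotated gene AC138894.1, on the same strand, shares 25.2% of the exon bases of CLN3 and 82.5% of its coding bases, and had 1 count in fluoxetine replicate 2 and 0 counts in the other libraries. Its part in the low count of CLN3 was not tested, so the count may not measure the level of CLN3 mRNA.

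**Figure D2:**
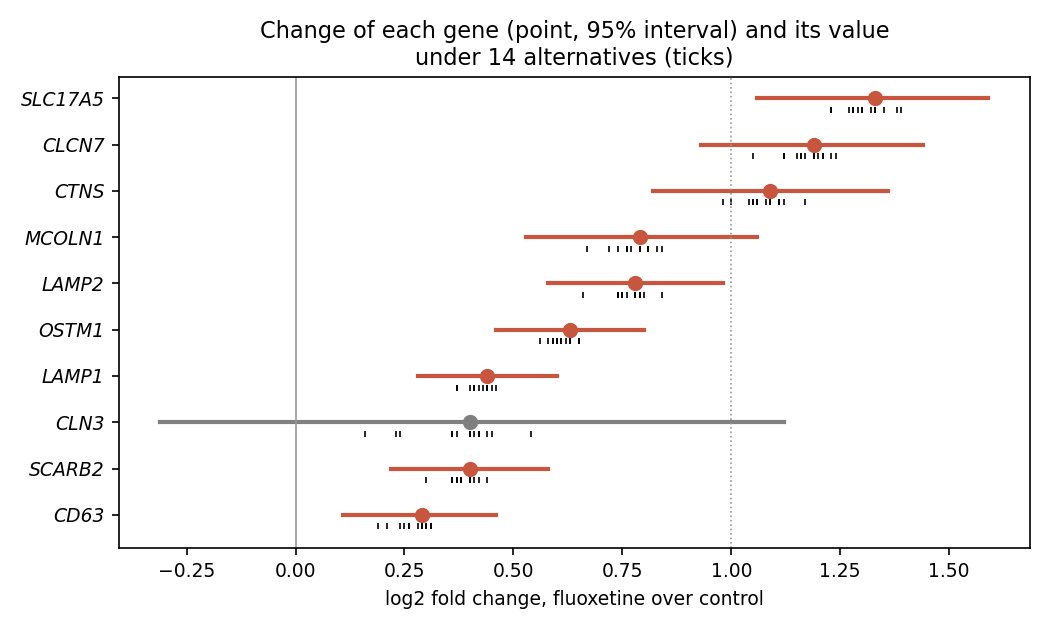
Log2 fold change of fluoxetine over control for each gene, with the 95% interval of the edgeR fit (red: adjusted p under 0.05, grey: not) and ticks for its values under 14 alternatives, with a dotted line at 2-fold. The intervals of SLC17A5, from 1.06 to 1.59, and of CD63, from 0.11 to 0.46, do not meet, and only the interval of CLN3 crosses 0.

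Divided by exon length, the levels spanned a wide range. In control cells CD63 was highest at 145 CPM per kilobase, followed by LAMP1 at 37.0, LAMP2 at 25.8, OSTM1 at 11.1 and SCARB2 at 8.06, and the library ranges of neighbours in this order did not overlap. SLC17A5 (4.46), CLCN7 (4.31), CTNS (4.19) and MCOLN1 (3.77 CPM per kilobase) followed, and neighbours among these 4 overlapped. CLN3 was last at 0.0806 CPM per kilobase, from a count that may not measure the level of its mRNA. In fluoxetine-treated cells the order was kept except that SLC17A5 (11.2) stood before SCARB2 (10.7 CPM per kilobase), with overlapping ranges. Exon length here is the union over all transcripts, which sets long genes such as SCARB2 low, and with bases shared between genes left out, 8 of 10 places in the control order were kept.

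Summed over the 10 genes, the level was 1027, 1045 and 1028 CPM in control and 1449, 1524 and 1450.0 CPM in fluoxetine libraries, 1.43 times as high. The 4 glycoproteins made up most of this sum, at 889.9, 900.3 and 891 CPM in control and 1179, 1247 and 1193 CPM in fluoxetine libraries, a ratio of 1.35. The 6 exporter, channel and exchanger genes, CLN3 included, went from 137, 145 and 137 CPM to 269, 278 and 257 CPM, a ratio of 1.92. Both sums separated the groups, and the sums varied less between libraries of a group than most single genes did. CD63 over LAMP1, the ratio of the most abundant glycoproteins per kilobase, was 3.67 to 4.204 in control and 3.34 to 3.63 in fluoxetine libraries, lower in each fluoxetine library.

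The spread between libraries differed from gene to gene. In the fluoxetine group the coefficient of variation was 1.34% for OSTM1, 1.91% for SCARB2 and 3.81% for LAMP2, and 13.1% for CTNS and 15.3% for CLN3. In the control group it ran from 5.77% for LAMP1 to 14.1% for CLCN7, with CLN3 at 26.1%.

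Further lysosomal membrane genes, and endolysosomal channels and exchangers, were described from lists made by function. Of all tested genes, 7.76% rose and 5.32% fell. Of 10 tested glycoproteins and multispan proteins, 4 rose and none fell (median log2 fold change 0.18), and 2 rose when control replicate 1, control replicate 2, fluoxetine replicate 1 or fluoxetine replicate 3 was left out. GLMP, the partner protein of a lysosomal transporter, went from 40.7 ± 2.16 CPM in control to 87.8 ± 4.44 CPM with fluoxetine (SD over 3 libraries each), 1.11 on the log2 scale in the edgeR fit (adjusted p = 2.14e-05). TMEM192 (log2 0.72), CD164 (0.34) and TMEM106B (0.31) were the others. LAMP3, a relative of LAMP1 that was expressed at 0.721 CPM in control cells, had a log2 difference of -0.66 with an SE of 0.50 (adjusted p = 0.443).

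Of 23 tested lysosomal solute carriers and pumps, 8 rose and none fell (median 0.27), and the count of risers was 3 without fluoxetine replicate 1, 4 without control replicate 2 and 5 without fluoxetine replicate 3. The smallest adjusted p-values belonged to the amino acid carrier SLC38A7, from 49.3 to 105 CPM (log2 1.10, adjusted p = 2.42e-05), the amino acid carrier SLC36A1 (log2 0.63), the heparan sulfate acetyltransferase HGSNAT (0.48) and MFSD1 (0.52). Of 11 channels and exchangers, 5 rose and none fell (median 0.27), namely 4 relatives of CLCN7, CLCN4 (0.85), CLCN6 (0.69), CLCN5 (0.81) and CLCN3 (0.56), and a relative of MCOLN1, MCOLN3, which was low and went from 1.20 to 3.62 CPM (log2 1.59, adjusted p = 0.00273). Over these 3 lists, 17 of 44 tested genes rose (38.6%), against 7.76% of all tested genes. The count fell to 9 without fluoxetine replicate 1 and to 10 without control replicate 2. Of the 44 genes, 35 carry the term lysosomal membrane in the deposited annotation, and 13 of those rose (37.1%). The deposited annotation places 208 further tested genes, outside the 10 and outside these lists, in the lysosomal membrane, of which 47 rose (22.6%) and 2 fell, with a median of 0.14. It also places 103 tested genes outside the 10 in the lysosome pathway, whether or not they are in the sets above. Of these, 35 rose (34.0%) and 1 fell, with a median of 0.26. A rise was thus not limited to genes chosen for the lysosomal membrane.

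The adaptor complexes AP-1 and AP-3, which sort glycoproteins such as LAMP1 and CD63 to the lysosome, had 1 riser among 14 genes, AP1M2 (log2 0.36, adjusted p = 0.0382), and a median of 0.03. The riser made up 7.14% of the list, near the 7.76% of all tested genes that rose. Relatives sited mainly outside the lysosome had a median of 0.02. Of 13 tested, 1 rose (7.69%) and 1 fell (7.69%), against 7.76% and 5.32% of all tested genes. SCARB1, a relative of SCARB2 that takes up cholesterol from lipoproteins, rose from 365.9 to 518 CPM (log2 0.50, adjusted p = 0.00641). The tetraspanin TSPAN15 fell (log2 -0.40, adjusted p = 0.0486). The tetraspanin CD81, a relative of CD63, was at 121 and 114 CPM (log2 -0.08, adjusted p = 0.604).

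**Figure D3:**
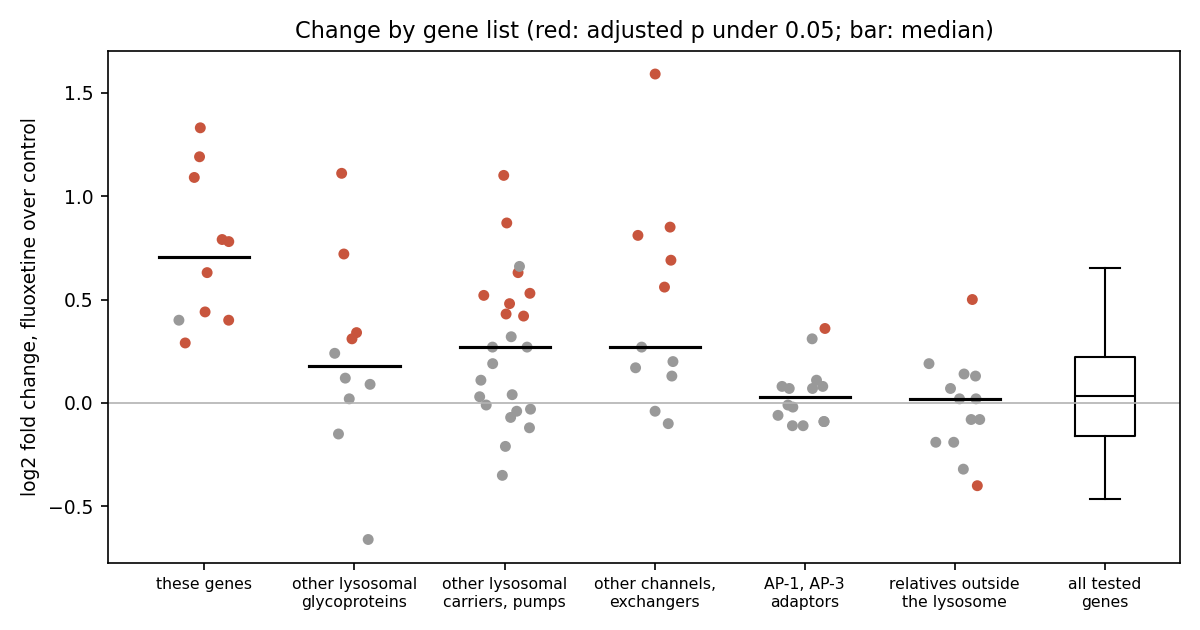
Log2 fold change of each tested gene, by list, red where the adjusted p was under 0.05, with the list median as a bar; the box at the right gives the median, quartiles and the central 90% range of all tested genes. The medians are 0.71 for the 10 genes, 0.18 to 0.27 for the other lysosomal and endolysosomal lists, and 0.03 or less for adaptors and outside relatives.

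Among these genes, fold changes with and without the 7-base core overlapped. LAMP1, with 6 copies, rose by 0.44 on the log2 scale, MCOLN1 by 0.79 and CLCN7 by 1.19, while CLN3 had 0.40 without passing the test. SLC17A5 at 1.33, CTNS at 1.09, OSTM1 at 0.63 and SCARB2 at 0.40 had no E-box in their windows. CD63, which had an E-box but not the 7-base core, had the smallest change at 0.29. LAMP2, at 0.78, had no promoter sequence to search. Among tested genes outside the 10 that matched a RefSeq promoter by symbol, 21.4% of the 739 with the 7-base core rose, against 7.78% of the 9458 without it, and the medians were 0.15 and 0.00 on the log2 scale. These shares are a description, since genes with and without the core also differ in other ways that were not examined.

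**Figure D4:**
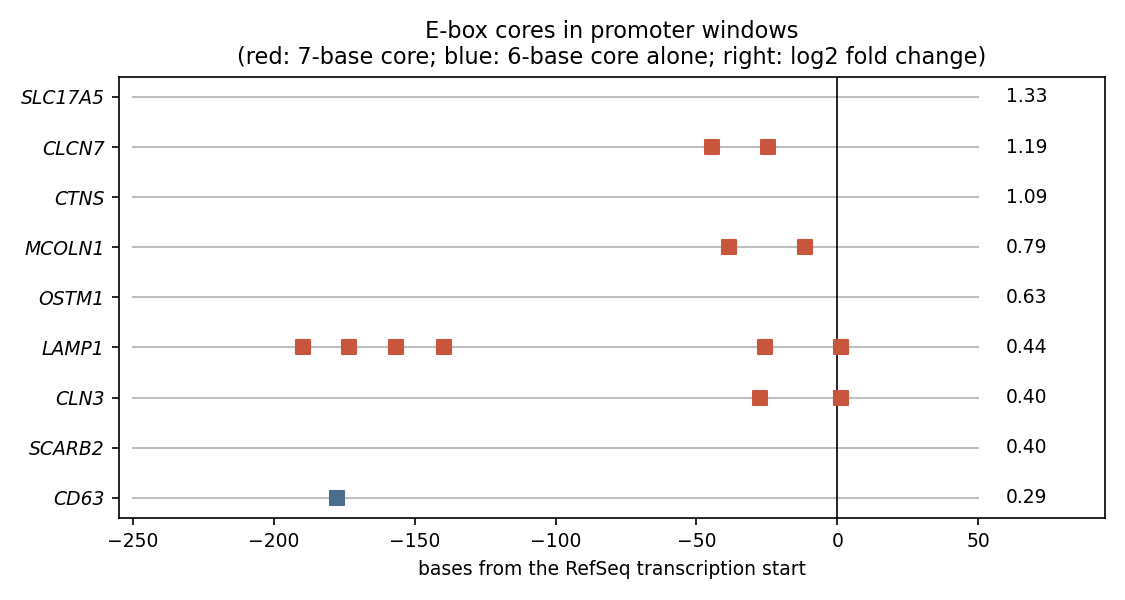
Positions of E-box cores from 250 bases before to 50 bases after the RefSeq start of 9 genes, 1 window per gene (for CD63, the window that holds a match), ordered by log2 fold change, which is printed at the right. Red marks the 7-base core and blue the E-box alone; genes at the top, such as SLC17A5 at 1.33, include some without any core.

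The genes outside the 10 whose profile over the 6 libraries was closest to the median profile of the 10 were SLC25A16, a mitochondrial carrier, with a mean absolute difference of 0.035 on the log2 scale, the protease inhibitor TIMP2 (0.039), DDIT4L (0.045), CYSTM1 (0.047) and MRNIP (0.049). Among 9888 genes compared, these 5 lay nearest to a profile of 0.00, 0.00 and -0.08 in control and 0.73, 0.69 and 0.65 in fluoxetine libraries, each relative to the control mean.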

How the data were processed

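RNA of H460 cells was measured in 3 control and 3 fluoxetine libraries (20 µM, 24 h), grouped by the treatment label. The authors deposited raw counts of reads per gene, with no normalization, beside their own fold changes and p-values, which were not used. The submitters' processing notes name fastp 0.20.0, HISAT2 2.1.0, HTSeq 0.10.0 and DESeq2 1.18.1. The use of strand and the annotation are not given in the sources used here, and 96.81% of the genes found in GENCODE release 29 had the same coordinates there (GRCh38).

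The test was the quasi-likelihood test of edgeR 4.0.16 in R 4.3.3 (filterByExpr, TMM, glmQLFit and glmQLFTest, no covariate) and Benjamini-Hochberg adjustment over 15646 genes. A gene was called at an adjusted p under 0.05. The SE is the log2 fold change divided by the square root of F, and intervals are at 95%. At these depths 3 counts are worth 0.108 to 0.186 CPM, and this floor covers counting error only. The test was checked on simulated counts, drawn independently with the same dispersion (spread beyond counting error) for every gene. Such counts lack the deviations that the real libraries share across genes. Alternatives were DESeq2 1.42.0, limma-voom 3.58.1, RLE scaling, library size only, no filter, at least 10 counts in every library, equal depth, the replicate number as a block, each library left out, and a fold change of at least 2.

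The 10 genes and all lists were chosen with earlier results of these data known. Named besides them are up to 4 called genes per list by smallest p, 5 genes of like profile among those of at least 10 CPM, overlapping genes, and CLCN3, LAMP3, CD81 and the markers of cell types, which were chosen after their values were seen.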

Additional observations from a re-analysis of the deposited data

How the results depend on the processing

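All 10 genes kept their direction in the 14 alternatives. LAMP2, CTNS, SLC17A5, MCOLN1, CLCN7 and OSTM1 were called in each, with adjusted p-values of at most 0.0343, and CD63, SCARB2 and LAMP1 lost the call in 8, 3 and 1 of them. The number of the 10 genes called was 8 or 9 under other tools, scalings, filters and equal depth, and 6 to 8 in the leave-one-out fits. With a fold change of at least 2 required, 3 were called. Over the 3 other lysosomal and endolysosomal lists, 17 genes were called, and 9 to 16 in the leave-one-out fits.

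Over all genes, 2047 were called, 572 (without fluoxetine replicate 1) to 3633 (without control replicate 3) in the leave-one-out fits, and 4018 with the replicate number as a block. The block changed no call among the 10 genes. Same-numbered libraries deviated together with correlations across genes of -0.162, 0.362 and 0.735. Control replicates 2 and 3 correlated best with the fluoxetine library of their own number, and control replicate 1 with fluoxetine replicate 2 (0.609). These deviations are taken within groups of 3 libraries and cannot settle whether the numbers pair the libraries, which is not stated. The cause of the larger count was not tested. CLN3 had 16 to 20 counts per library, and the source of its low count was not tested.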
